A study of Mus musculus with 9 samples.

Results

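Beige and white fat cells are told apart by a small set of marker genes, and 8 of them were examined here for DNA methylation: Mtus1, Tmem26, Cd40, Dpt, Psat1, Wt1, Tnfrsf9 and Lep. The members were the cytosines measured inside the body of each gene or within 10000 bp to either side of it, with genes placed by GENCODE vM1 on the mouse mm9 assembly. These windows held 344 of the 838481 cytosines in the table, which made up 228 of 526397 CpGs, and 236 of the 344 cytosines lay inside a gene body. In all, 26127 annotated genes had at least 1 measured cytosine in such a window.

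Methylation was measured by reduced representation bisulfite sequencing (RRBS) in cultured fat cells of 8 BL6 mice sacrificed at 3 weeks of age. Precursors from interscapular brown fat and from inguinal white fat were grown to confluence and differentiated with insulin, dexamethasone, 3-isobutyl-1-methylxanthine and rosiglitazone. The 4 brown libraries were BAT at days 0, 4 and 6 and BAT at day 6 after 4 h of norepinephrine (BAT + NE). The 5 white libraries were WAT at days 0, 4 and 6 and BWAT, a separate set of white precursors differentiated in the presence of norepinephrine, at days 4 and 6. Day 0 was the confluent precursor before the differentiation mix was added, and all later libraries had received that mix. Each condition was a single library. The cells were stromal vascular preparations and not a sorted population, and the sources used here do not say how the tissue of the mice was pooled. Nothing says that the days were separate cultures, so the p-values below measure only the spread between these libraries. Brown and white cells also came from different depots, so cell type and depot cannot be told apart.

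In mammals a methyl group is carried mostly by cytosines that stand before a guanine (CpG). CpG-rich promoters of genes in use are usually almost free of methylation, whereas gene bodies and the sequence between genes are usually highly methylated, and sites of intermediate level often lie at regulatory sequence that differs between cell types. Beige cells are thermogenic cells that arise within white depots, and norepinephrine, the transmitter of the sympathetic nerves, is the natural signal that brings them out. Tmem26 (a membrane protein of unclear function), Cd40 (a costimulatory receptor of immune cells) and Tnfrsf9 (the receptor CD137, also of the TNF receptor family) have been used as surface markers of beige precursors. Mtus1 (a microtubule-associated protein that binds the angiotensin II type 2 receptor) has been counted with the beige genes as well. Dpt (dermatopontin, a protein of the extracellular matrix), Psat1 (phosphoserine aminotransferase, an enzyme of serine synthesis), Wt1 (a zinc finger transcription factor of mesothelium and visceral fat precursors) and Lep (leptin, the satiety hormone of white fat) stand on the white side.

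Neighbouring cytosines no more than 300 bp apart were joined, and each stretch that held 4 or more of them was taken as a fragment. The members formed 36 of the 67233 fragments of the table. The sequences of the 6 member fragments whose difference between brown and white cells kept its call whichever library was left out are shown first, since the results turn on them. Each is the mm9 sequence on the strand of its gene, 5′ to 3′, with 2 bases added at either end, and the capitals mark the measured CpGs. The cut sites of the restriction enzymes, ccgg for MspI and tcga for TaqαI, can be read at most of the ends.
Mtus1 coding exon, chr8:42167933-42168093, minus strand: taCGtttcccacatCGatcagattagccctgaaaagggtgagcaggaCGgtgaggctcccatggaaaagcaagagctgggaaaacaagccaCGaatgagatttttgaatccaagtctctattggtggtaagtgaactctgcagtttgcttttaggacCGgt
Tmem26 first part of the gene, chr10:68187064-68187201, plus strand: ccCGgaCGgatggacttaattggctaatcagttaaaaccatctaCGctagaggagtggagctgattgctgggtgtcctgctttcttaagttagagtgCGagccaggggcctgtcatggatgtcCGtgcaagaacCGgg
Tmem26 downstream, chr10:68254565-68254680, plus strand: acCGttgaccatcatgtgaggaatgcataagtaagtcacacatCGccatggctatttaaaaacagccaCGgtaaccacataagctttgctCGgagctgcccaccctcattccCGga
Cd40 upstream, chr2:164879187-164879321, plus strand: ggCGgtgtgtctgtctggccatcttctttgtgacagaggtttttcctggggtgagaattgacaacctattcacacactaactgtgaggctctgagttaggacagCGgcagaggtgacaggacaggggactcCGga
Dpt intron, chr1:166730747-166730889, plus strand: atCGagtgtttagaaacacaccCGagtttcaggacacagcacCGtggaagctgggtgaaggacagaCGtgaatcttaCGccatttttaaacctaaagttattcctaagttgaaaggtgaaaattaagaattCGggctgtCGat
Psat1 intron, chr19:15998023-15998135, minus strand: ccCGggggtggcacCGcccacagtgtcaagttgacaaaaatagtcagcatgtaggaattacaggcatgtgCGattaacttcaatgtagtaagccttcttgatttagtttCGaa

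The member cytosines were partially methylated on average, and no library stood apart in this respect. Their mean level was 49.8% to 51.5% in the 9 libraries, against 40.2% to 41.2% over all cytosines. Read depth is unknown beyond the minimum of 10 reads per cytosine that the authors required, so single cytosines carry a large counting error. At the 109 member CpGs that had both strands measured outside restriction sites, the levels of the strands differed with an SD of 6.31 to 8.91 percentage points, depending on the library.

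The first question was where brown and white cells differed at these genes. Of the 36 member fragments, 9 were called between the 4 brown and the 5 white libraries (limma on logit levels with a term for day 0 against later days, adjusted p below 0.05 over all fragments), which is 25.0%. Over all 67233 fragments 9.43% were called. The share of the members was not tested against that background. Brown cells were higher in 5 of the 9 and lower in 4, beside 2367 higher and 3973 lower among all called fragments. Of the 8 genes, 6 held at least 1 of the 9. The same 9 fragments, and no other member, showed no overlap between brown and white libraries, against 12.3% of all fragments. When the fit was limited to the 6 BAT and WAT libraries without norepinephrine, with day as a block, the Cd40 and Psat1 fragments kept the call (2 of 36, against 2.28% of all fragments). Without BWAT 6 of the 9 were called (5.18% of all fragments), and with the cytosines of restriction sites left out 5 of 31 member fragments were (7.79% of all). The median difference between brown and white cells was 0.681 points over the member fragments and -0.0901 points over all fragments. Whether the members share a direction was not tested.

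**Figure D1:**
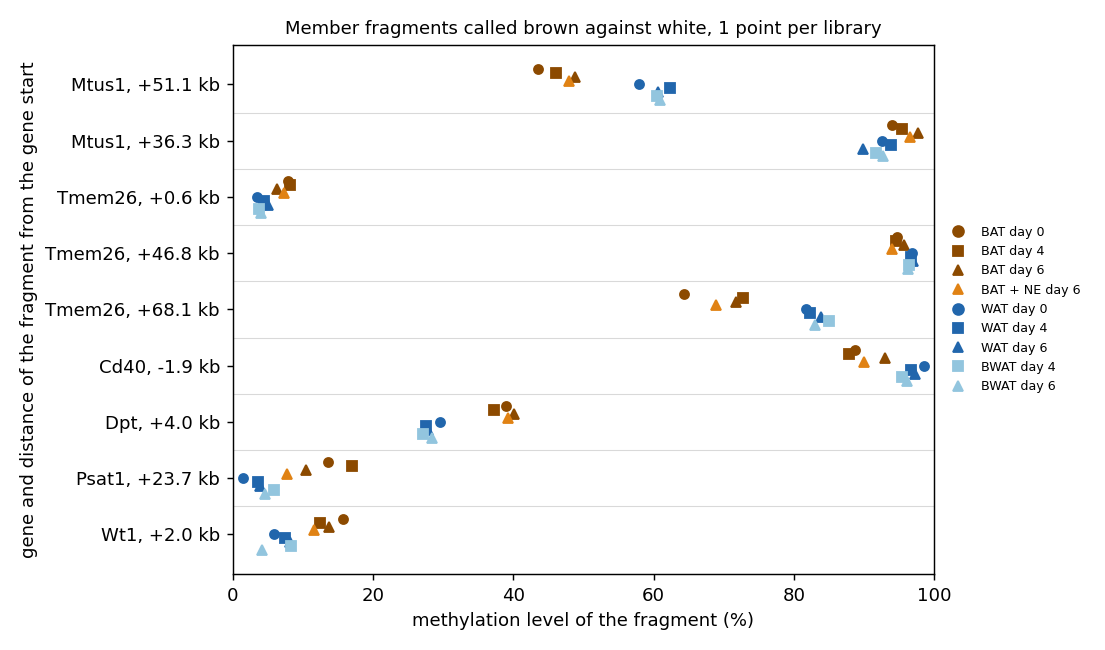
Methylation level (x axis, percent) of the 9 member fragments called between brown and white cells, 1 row per fragment with its distance from the start of the gene. Each point is 1 library, coloured by cell type and shaped by day. Brown and white libraries form separate groups in every row, with BWAT (light blue) among the white libraries, and the gap between the group means ranges from 1.88 points for the Tmem26 fragment at +46.8 kb to 13.9 points for the Mtus1 fragment at +51.1 kb.

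Tmem26 was the gene in which every fragment differed, and its differences ran in opposite directions along the gene. The fragment 9165 bp past the end of the gene held 10 cytosines of 5 CpGs. It was methylated at 64.3%, 72.7% and 71.8% in BAT of days 0, 4 and 6, at 68.9% in BAT + NE, at 81.7%, 82.3% and 83.9% in WAT of the same days, and at 85.0% and 83.1% in BWAT of days 4 and 6. Every brown library thus lay below every white library, with BAT of day 0 the lowest. The difference was -1.07 ± 0.13 on the log2 logit scale (estimate ± SE, adjusted p = 0.000641), and leaving out single libraries gave adjusted p between 0.00183 and 0.00476. All 5 CpGs were lower in brown cells. The gap was 25.2 points at the first CpG (61.6% against 86.8%) and 21.1 points at the middle one (68.3% against 89.5%), but 3.06 points at the second, which was almost fully methylated in both (94.5% against 97.6%).

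At the other end of Tmem26, 638 bp downstream of the gene start within the first part of the transcript, the direction was the reverse. This lowly methylated intronic fragment of 10 cytosines had levels of 7.89%, 8.22%, 6.31% and 7.31% in BAT of days 0, 4 and 6 and BAT + NE. In WAT it had 3.47%, 4.45% and 4.97%, and in BWAT 3.75% and 3.98%. Brown cells were higher by 3.31 points (0.77 ± 0.14, adjusted p = 0.00713), with all 6 CpGs higher, and the call was lost without BWAT (adjusted p = 0.0621). The remaining fragment, 46.8 kb into the gene, was highly methylated in all cells, at 93.9% to 95.7% in brown and 96.2% to 97.0% in white libraries (-0.54 ± 0.14, adjusted p = 0.0341). That call was lost in 8 of the 9 fits that left out 1 library. Summed over its whole window of 35 cytosines, Tmem26 was at 57.7% ± 2.37 in brown (SD, n = 4) and 61.3% ± 0.323 in white libraries (SD, n = 5, adjusted p = 0.0231), and this call was lost without BAT of day 6 (adjusted p at most 0.0580) or without BAT + NE.

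Immediately upstream of Tmem26 the picture was different again. The promoter, taken as 1000 bp upstream to 500 bp downstream of a start, held 5 cytosines and was not called (14.8%, 37.0%, 29.6% and 36.2% in BAT of days 0, 4 and 6 and BAT + NE, against 25.3% to 30.1% in the white libraries, adjusted p = 0.993). Its spread came from a pair of CpGs 488 bp upstream of the start, too few for a fragment. They were at 26.1% in BAT of day 0 and at 84.4%, 72.3% and 81.3% in the later brown libraries, while the white libraries stayed between 60.0% and 68.9%. This pair was singled out after its values were seen and rests on 2 cytosines, so no test is given.

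Mtus1, the longest of the genes, held 8 fragments, of which 2 were called in opposite directions. The first, with 8 cytosines of 5 CpGs, overlapped a coding exon 118 bp downstream of an internal transcription start and 51.1 kb from the start of the gene. BAT had 43.5%, 46.1% and 48.8% at days 0, 4 and 6 and BAT + NE had 47.9%. WAT had 58.0%, 62.4% and 60.7%, and BWAT had 60.5% and 60.9%. The brown libraries were lower by 13.9 points on average (-0.79 ± 0.11, adjusted p = 0.00168), with no library of one group inside the range of the other. The gap was widest at 2 CpGs, of which one was at 36.0% in brown and 60.8% in white cells and the other, in an MspI site at the edge of the fragment, at 65.0% and 88.3%. A CpG at the opposite edge ran the other way, at 93.5% in brown and 86.8% in white cells, with overlapping groups. The promoter window of that internal start contained these cytosines and 1 more, and it was the only one of the 6 measured member promoters to be called (50.5% ± 1.70 in brown, SD, n = 4, and 61.6% ± 1.43 in white, SD, n = 5; -0.63 ± 0.10, adjusted p = 0.0173). Over all promoters 1.37% were called. This promoter lost its call in 6 of the 9 fits that left out a library, with adjusted p up to 0.0879, and without BWAT (adjusted p = 0.124). The other measured promoter of Mtus1, at another internal start, held 3 cytosines and ran the other way. It was at 79.8% ± 5.41 in brown (SD, n = 4) and 71.2% ± 5.78 in white libraries (SD, n = 5). The groups overlapped there, and that promoter was not called. No promoter in the table was called with the 6 libraries and day as a block.

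The second called fragment of Mtus1 was intronic and highly methylated, at 94.0%, 95.4%, 97.7% and 96.6% in BAT of days 0, 4 and 6 and BAT + NE. WAT had 92.6%, 93.8% and 89.8%, and BWAT 91.6% and 92.6%. Brown cells were higher by 3.85 points (0.93 ± 0.22, adjusted p = 0.0292), and 13.6 points of difference sat at 1 CpG in an MspI site (92.2% against 78.5%). Leaving out any of 5 libraries (BAT of day 6, BAT + NE, WAT of day 6 or either BWAT) ended the call. The other 6 fragments of Mtus1 were between 64.9% and 94.7% in group means and were not called.

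Cd40 differed upstream of the gene. A fragment of 5 cytosines in 3 CpGs, 1873 bp before the start, was at 88.7%, 87.9% and 93.0% in BAT of days 0, 4 and 6 and at 90.0% in BAT + NE. The white libraries were close to full methylation, with 98.5%, 96.7% and 97.2% in WAT and 95.4% and 96.1% in BWAT. All 3 CpGs were lower in brown cells, and the groups did not overlap (-1.55 ± 0.24, adjusted p = 0.0035; 0.042 with the 6 libraries). In the body of the gene, a fragment 760 bp upstream of an alternative start and 6.29 kb inside the gene had a gap of 7.57 points, wider than the upstream one, at 61.5% ± 5.30 in brown (SD, n = 4) and 54.0% ± 4.02 in white (SD, n = 5), and was not called (adjusted p = 0.203). The 4 cytosines of this fragment were also the only ones measured in a promoter window of Cd40, that of the alternative start. That promoter was not called (limma, adjusted p = 0.450), and the promoter at the gene start was not measured. The window of Cd40 as a whole was at 56.7% in brown and 57.0% in white cells.

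Dpt was higher in brown cells in an intron. Its intronic fragment of 12 cytosines in 7 CpGs, 3955 bp downstream of the start, was at 39.0%, 37.3% and 40.0% in BAT of days 0, 4 and 6 and at 39.2% in BAT + NE. WAT had 29.6%, 27.5% and 27.9%, and BWAT had 27.1% and 28.3%. Brown cells were thus higher by 10.8 points, while the libraries of a cell type differed by less than 3 points (0.68 ± 0.11, adjusted p = 0.00382). Methylation was low at the near end of the fragment and rose further along it in both cell types. The means were 11.2% in brown and 5.59% in white at the first CpG and 6.55% and 2.78% at the second. They were 7.36% and 3.84% at the third and 77.2% and 67.0% at the last. The gap lay in the middle and at the far end of this slope, with 30.2% against 12.3% at the fourth CpG, 67.8% against 47.8% at the fifth and 77.2% against 65.5% at the sixth, and these were the CpGs in which brown and white libraries did not overlap. Over its 18 cytosines the window of Dpt was higher in brown cells too (38.4% ± 2.11, SD, n = 4, against 32.4% ± 0.723, SD, n = 5; adjusted p = 0.0079), of which 12 cytosines were those of this fragment. A pair of CpGs in restriction sites 8.13 kb upstream went the other way, at 60.3% to 77.3% in brown and 81.0% to 89.3% in white libraries. This pair was too short for a fragment and was named after its values were seen, so no test is given. The promoter of Dpt held no measured cytosine.

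**Figure D2:**
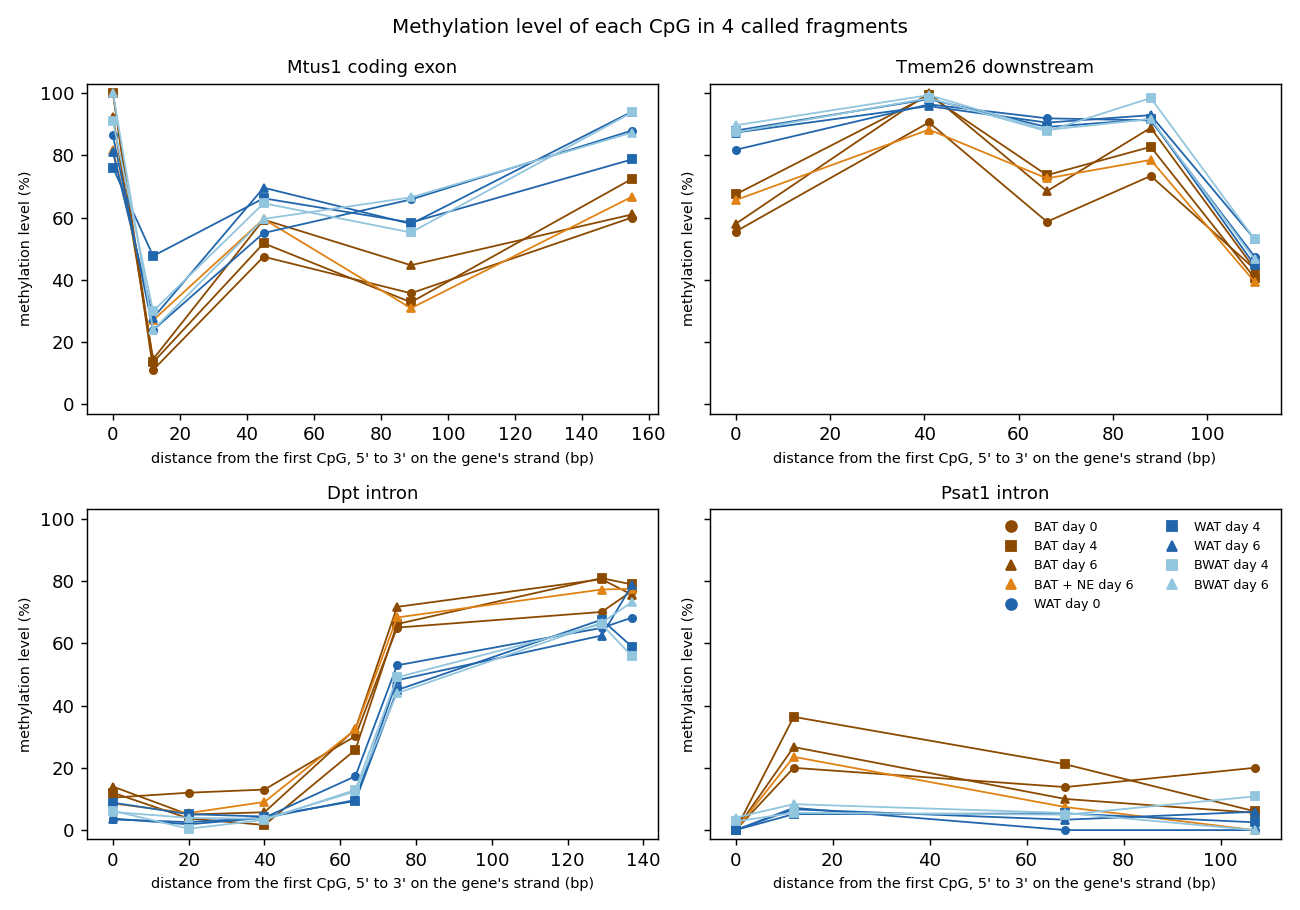
Methylation level (y axis, percent) of each CpG in 4 called fragments against its distance from the first CpG in bp (x axis, 5′ to 3′ on the strand of the gene), with 1 line per library coloured by cell type and shaped by day. All brown lines lie below all blue ones at 2 of the 5 CpGs of Mtus1 and 4 of the 5 of Tmem26. They lie above them at the fourth to the sixth CpG of Dpt and at both inner CpGs of Psat1. The brown mean of Dpt is 11.2% at the first CpG, 7.36% at the third and 77.2% at the last.

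Psat1 kept an unmethylated promoter in both cell types and differed just downstream of it. The promoter fragment of 21 cytosines, at an internal start 22.7 kb from the gene start, was between 0.489% and 2.08% in all 9 libraries. It was not called (adjusted p = 0.664). The intronic fragment 1034 bp downstream of an annotated start was at 13.5%, 16.9% and 10.4% in BAT of days 0, 4 and 6 and at 7.66% in BAT + NE. It was nearly unmethylated in white cells, with 1.43%, 3.66% and 3.84% in WAT and 5.81% and 4.67% in BWAT. Brown cells were higher by 8.26 points (1.61 ± 0.31, adjusted p = 0.00951; 0.0351 with the 6 libraries). At the CpG with the widest gap, measured on 1 strand, the brown mean was 26.6% and the white mean 6.57%, and the lowest brown library was above the highest white one, at 8.33%. The fragment has only 5 cytosines, and fewer than 4 of them lie outside restriction sites. The other fragments of Psat1 were almost fully methylated, at 94.4% to 96.6% in group means, and were not called.

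Wt1 was lowly methylated around its start in every library. Its promoter of 20 cytosines was between 3.26% and 7.18%, with overlapping groups (adjusted p = 0.761). In an intron, 1998 bp downstream of the start, a fragment of 7 cytosines was at 15.7%, 12.5% and 13.7% in BAT of days 0, 4 and 6 and at 11.6% in BAT + NE. WAT had 5.87%, 7.43% and 8.13%, and BWAT 8.32% and 4.20%, so that brown cells were higher by 6.57 points (1.01 ± 0.21, adjusted p = 0.0134). All 4 CpGs were higher in brown cells, and the call was lost without the day 0 library of BAT or of WAT (adjusted p = 0.0610; these fits are alike, because the remaining day 0 library is taken up by the day term). The window of Wt1 as a whole passed the threshold by little (36.4% ± 0.830, SD, n = 4, against 34.1% ± 0.936, SD, n = 5; adjusted p = 0.0499) and lost its call when any library was left out. With it, 3 of the 7 member windows that held at least 10 cytosines were called, namely Dpt, Tmem26 and Wt1, against 10.6% of all windows. None of the 3 was called without BWAT.

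Tnfrsf9 and Lep had no call. The Tnfrsf9 fragment nearest to an annotated start, 1164 bp upstream of an internal one, was at 66.7% to 68.8% in brown and 67.9% to 73.1% in white libraries (-0.18 ± 0.12, adjusted p = 0.462). Its fragment with the most cytosines, 40, lay upstream of the gene over the start of the neighbouring gene Park7 and was unmethylated everywhere (0.611% to 1.66%). An intronic fragment of 4 cytosines had the widest gap, 54.6% ± 7.35 in brown (SD, n = 4) and 63.7% ± 6.66 in white (SD, n = 5), which was within the spread of the libraries (adjusted p = 0.251). A trio of cytosines in a coding exon, too short for a fragment and named after its values were seen, was at 20%, 52.8%, 43.3% and 49.7% in BAT of days 0, 4 and 6 and BAT + NE and at 52.9% to 61.7% in white libraries. Lep held 4 cytosines in 3 CpGs and therefore no fragment, and its promoter was not measured. A single cytosine in its UTR was at 79.7% to 93.0% in all libraries. The 3 cytosines just past the gene end were at 62.3%, 57.4%, 49.3% and 40.8% in BAT of days 0, 4 and 6 and BAT + NE, at 51.2%, 47.0% and 38.7% in WAT, and at 37.2% and 42.6% in BWAT, with overlapping groups.

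**Figure D3:**
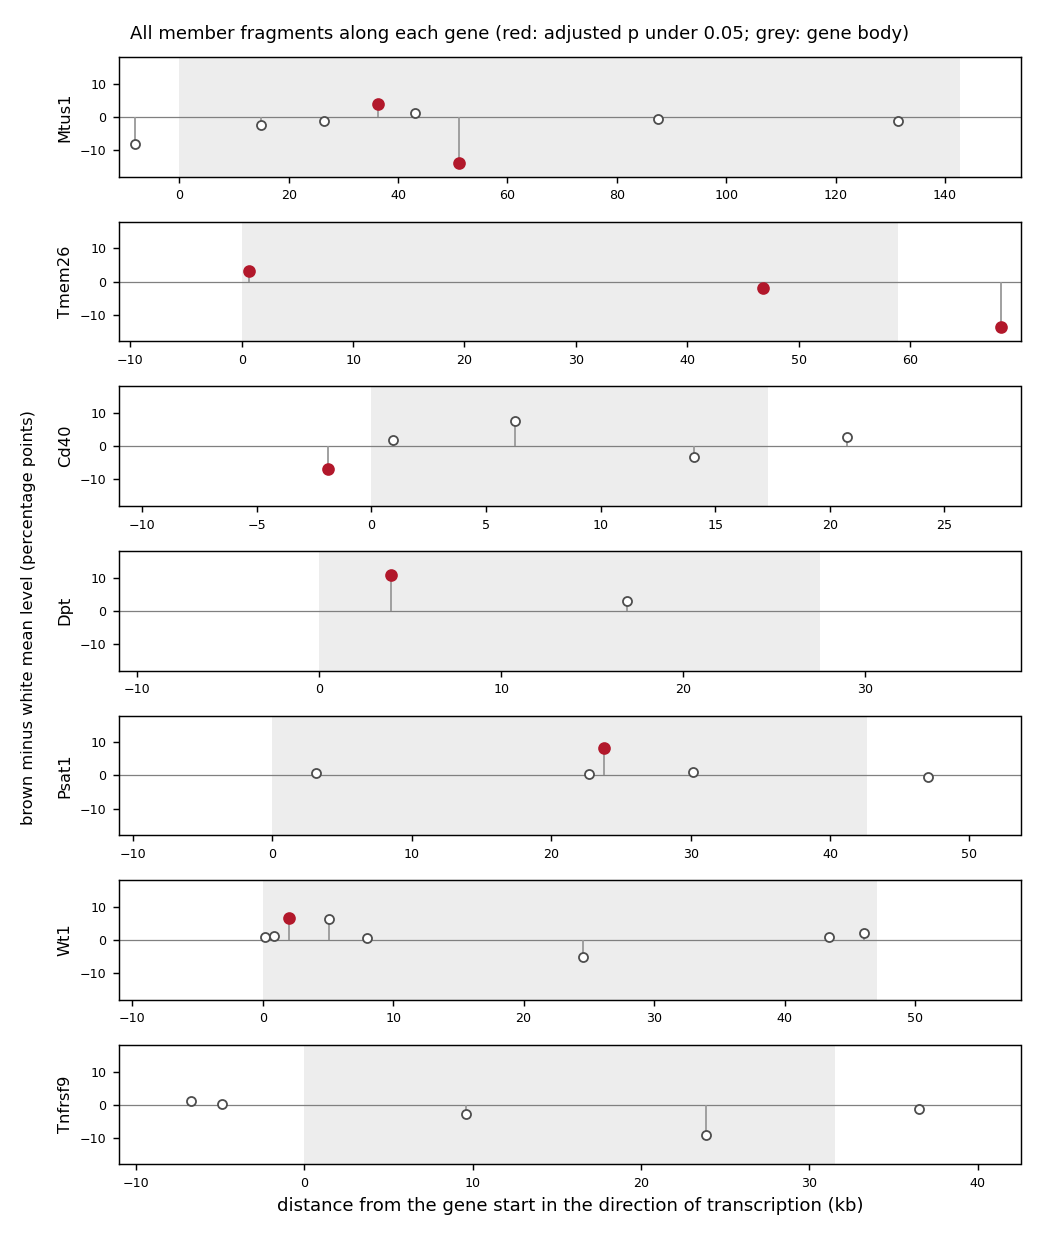
Difference between the brown and the white mean level (y axis, percentage points) of all 36 member fragments against the distance of the fragment from the gene start in kb (x axis), 1 panel per gene, with the gene body shaded. Filled red points are the 9 called fragments. They lie in the introns, in a coding exon, upstream and downstream of the genes, above 0 for Dpt, Psat1 and Wt1, below 0 for Cd40, and on both sides for Mtus1 and Tmem26. Lep had no fragment.

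The called fragments were not confined to promoters or to one level of methylation. Of the 8 member fragments within 1000 bp of a start of their own gene 2 were called, and of the 28 further away 7 were. Both shares are 25.0%, beside 9.43% of all fragments at any distance, and the shares of all fragments by distance were not computed. Among lowly methylated members (below 30%) 3 of 10 were called, all higher in brown cells, beside 4.85% of all fragments of that level. Among partially methylated members (30% to 70%) 2 of 9 were called, which is near the 21.8% of all such fragments. Among highly methylated members 4 of 17 were called, of which 3 were lower in brown cells, beside 7.40% of all such fragments. None of the 9 overlapped an annotated UTR. They held 44 CpGs, and in 15 of these brown and white libraries did not overlap. The fragments were picked by this same difference and no share over all CpGs was computed, so this count only describes them.

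At the level of single CpGs, BAT and WAT were compared day by day. Of the 228 member CpGs, 16 differed by at least 10 points in the same direction at days 0, 4 and 6, with BAT higher at 6 and lower at 10. This is 7.02% of the members, beside 2.65% of all CpGs, and the shares were not tested against each other. Those higher in BAT included CpGs of Dpt (2), Mtus1, Psat1, Wt1 and Lep, and those lower in BAT included CpGs of Mtus1 (4), Tmem26 (2), Tnfrsf9 (2), Dpt and Wt1. Only 1 of the 16 remained at a limit of 20 points.

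The next question was whether white cells differentiated with norepinephrine moved towards brown cells at these genes. No member fragment was called between BWAT and WAT by limma, and none of the 67233 fragments was (0%). At an unadjusted p below 0.05 there were 2 of 36 members and 3217 of all fragments (4.78%). At the 9 fragments that separated brown from white cells, BWAT lay closer to WAT than to BAT at both days in 8, the exception being the Tmem26 fragment at 46.8 kb on day 6. BWAT was part of the white group in that comparison, so the fragments called without BWAT were also examined. All 6 of them had BWAT nearer to WAT than to BAT at both days, as did 85.1% of the 3486 fragments of the whole table called in that fit. The BWAT minus WAT estimates at the 9 fragments ranged from -0.57 to 0.58 on the log2 logit scale, the lowest at Cd40 (SE 0.33) and the highest at Psat1 (SE 0.33). Differences of this size in either direction are therefore not distinguishable from the spread of the libraries, which is not the same as no effect of norepinephrine.

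The 3 fragments in which BWAT and WAT differed most with the same sign at both days were outside that set. At the start of Wt1, 177 bp downstream of it, a fragment of 5 cytosines was at 10.3% and 8.28% in WAT of days 4 and 6 and at 0% and 1.54% in BWAT of the same days (-2.43 ± 0.60, adjusted p = 0.963). WAT of day 0 was at 2.78% there, and the brown libraries were between 3.57% and 7.57%, so that BWAT lay outside the brown range as well. It overlaps an annotated UTR, and the start of the neighbouring gene AI314831 is 196 bp away. An intronic fragment of Wt1 24.6 kb from the start was at 77.5% and 77.8% in WAT and 66.2% and 76.5% in BWAT, with nearly all of the gap at day 4. A fragment 8.14 kb upstream of Mtus1 was at 77.4% and 75.3% in WAT and 77.2% and 65.0% in BWAT, with all of the gap at day 6. Only the first of them kept a gap of over 5 points at both days.

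Over all members, BWAT and WAT had the same sign of difference at both days in 18 of 36 fragments, and in 50.7% of all fragments. The median size of the difference was 1.79 points at day 4 and 2.73 at day 6, beside 3.34 and 4.48 points between BAT and WAT at these days. The corresponding medians over all fragments were 1.75 and 1.70 for BWAT and 2.19 and 2.31 for BAT. At single CpGs, 4 of 228 members passed 10 points in the same direction at both days (1.75%, against 1.9% of all CpGs), with BWAT higher at 1 CpG each of Mtus1 and Cd40 and lower at 2 CpGs of Wt1. That share is near the background and is not a result about these genes.

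**Figure D4:**
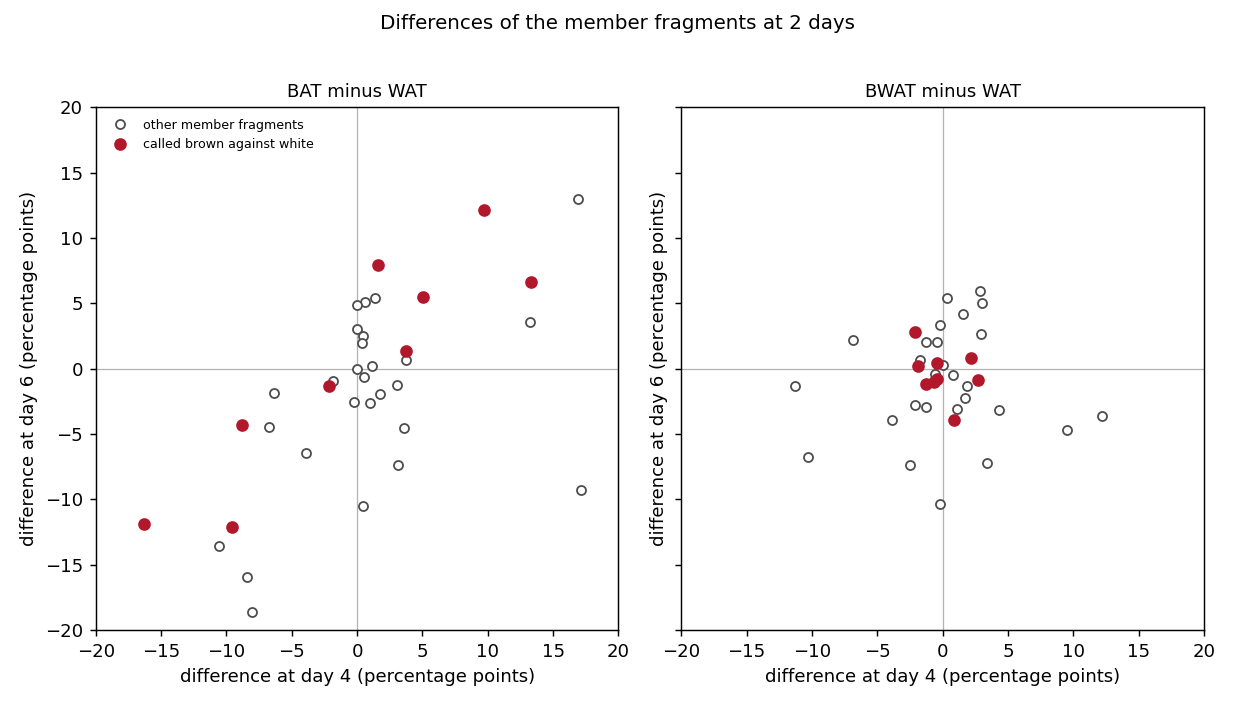
Difference of each of the 36 member fragments at day 4 (x axis) and day 6 (y axis), in percentage points, for BAT minus WAT on the left and BWAT minus WAT on the right, on the same scales. Filled red points are the 9 fragments called between brown and white cells. On the left they lie in the quadrants of equal sign, whereas on the right they lie within 3.93 points of 0, and the 2 panels share their WAT libraries. The fit that called them had WAT and BWAT together as white, which favours both patterns.

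Acute norepinephrine in brown cells could be compared only between 1 library and 1 library, with no replicate check. At the 9 called fragments BAT + NE differed from BAT of day 6 by at most 3.01 points, but it was itself 1 of the 4 brown libraries that called them. In the fit without BAT + NE 7 of the 9 were called (7.39% of all fragments), and BAT + NE lay beyond every white library on the side of BAT in all 7, as it did in 91.6% of all fragments called in that fit. The largest differences were elsewhere, 17.5 points upward at the fragment 8.14 kb upstream of Mtus1 (56.7% to 74.2%) and 15.4 points upward at the intronic fragment of Tnfrsf9 (50.1% to 65.5%). Of the member CpGs 42 of 228 (18.4%) passed 10 points, 27 higher and 15 lower with norepinephrine, against 14.3% of all CpGs, a comparison of 2 single libraries in which counting error is large.

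Differentiation itself left the fragments of these genes without a call, with a single BAT and a single WAT library at day 0. The pair of CpGs upstream of Tmem26 and the trio of cytosines in Tnfrsf9, described above, were too short to be among these fragments. No member fragment was called between day 0 and the later days (limma, lowest adjusted p = 0.335), 2 of 36 had an unadjusted p below 0.05, and 0.173% of all fragments were called (8.57% at the unadjusted limit). A count of 0 is near that background share and is not a result about these genes. The member nearest to a call was a fragment of 5 cytosines in Psat1, 3088 bp from the gene start, at 91.9% and 93.7% in BAT and WAT of day 0 and at 94.4% to 99.1% later. No member fragment was called for a change after day 0 that differed between brown and white cells (limma, lowest adjusted p = 0.998), and 3 of 36 had an unadjusted p below 0.05. Over all fragments 0.00149% were called and 4.6% passed the unadjusted limit, so the count of 0 is that of the background and is not a result about these genes.

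The wider families of these genes were read at their promoters, of which 1.37% were called over the whole table, and at their fragments, with lists put together when results of these data were already known. Of 19 further beige genes, 9 had a measured promoter, and 1 of their 11 promoters was called: Tbx1, a T-box transcription factor used as a beige marker, was at 12.7% ± 1.90 in brown (SD, n = 4) and 20.2% ± 1.13 in white libraries (SD, n = 5, adjusted p = 0.0255), a call lost in 8 of the 9 fits that left out a library. Of 20 further white fat genes, 13 had a promoter measured and 2 were called, the homeobox genes Hoxc9 (12.1% in brown, 1.06% in white) and Hoxc10 (18.2% and 2.47%), which the study had singled out on these same samples and which are no independent evidence. None of 12 promoters of the TNF receptor family, to which Cd40 and Tnfrsf9 belong, and none of 5 promoters of the serine and one-carbon enzymes around Psat1 was called. At the level of fragments, 13 of 91 were called for the beige genes, 11 of 69 for the white fat genes, 9 of 65 for the TNF receptor family and 0 of 15 for the serine and one-carbon enzymes (limma, 3 with an unadjusted p below 0.05), beside 9.43% of all fragments. Brown cells were higher in 5 and lower in 8 of the called beige fragments. They were higher in 10 and lower in 1 for the white fat genes, and higher in 4 and lower in 5 for the TNF receptor family. Among all called fragments 2367 were higher and 3973 lower, and these directions were not tested against each other. The median promoter difference in the 4 lists was between -0.221 and 0.121 points, beside 0.00635 points over all promoters.

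Markers of other cells that a stromal vascular culture can hold were looked at in the same way. The 6 measured promoters of adipocyte genes and the 6 of preadipocyte genes had no call. Neither had the 3 of blood cells, which were at 49.6% to 89.3% in brown and 52.5% to 88.5% in white cells, the 2 of smooth muscle or the 1 of mesothelium, which is that of Wt1. Of 6 endothelial promoters 1 was called, that of the adhesion molecule Pecam1, at 48.5% ± 3.25 in brown (SD, n = 4) and 72.2% ± 2.44 in white cells (SD, n = 5, adjusted p = 0.00157). Among the fragments of these lists, 3 of 42 were called for adipocyte genes and 3 of 52 for preadipocyte genes, each with 1 higher and 2 lower in brown cells. For endothelial genes 6 of 47 were called, 2 higher and 4 lower. For blood cell genes 2 of 20 were called, both lower. Over all fragments 9.43% were called. For smooth muscle 0 of 7 were called (limma, 1 with an unadjusted p below 0.05), and for mesothelium 1 of 15, which is the Wt1 fragment described above. A difference in the share of other cells between the cultures and its part in the values above was not tested.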

How the data were processed

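RRBS gave 9 libraries of cultured mouse fat cells. The study's methods state that genomic DNA was cut with MspI and TaqαI, size-selected, bisulfite-converted and sequenced from both ends, and the submitters' processing notes name Bowtie (version not given in the sources used here) and mm9. The authors deposited 1 methylation percent per cytosine and library, for autosomal CpGs with at least 10 reads in all libraries. The table holds no read counts, so the Fisher exact test of the study could not be run and depth is unknown beyond that minimum.

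Levels were averaged over fragments (at least 4 cytosines, gaps of at most 300 bp), promoters (1000 bp upstream to 500 bp downstream of each start, merged within a gene, at least 2 cytosines) and windows (gene body and 10000 bp to either side, at least 10 cytosines). They were tested with limma 3.58.1 in R 4.3.3 on log2((level + 1)/(100 − level + 1)), over all features, with Benjamini-Hochberg adjustment and a limit of 0.05. The terms were brown (4 libraries) against white (5) and day 0 against later. BWAT against WAT was a contrast in a fit with 1 term per cell group. The strands of a CpG were averaged, and CpGs past 10 points were counted with no test. Fitting was tested on simulated data. Sequences come from NCBIM37 (mm9), and gene models from GENCODE vM1.

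The members and gene lists were chosen with earlier results of these data known. All 8 members were described. Given in full were their called fragments, the fragment nearest to a start for members with no call, and the 3 fragments with the largest BWAT minus WAT difference of equal sign at both days. RNA-seq was not analysed here. Alternatives were the offset (5 in place of 1), the percent scale, no day term, day as a block in 6 or 4 libraries, no BWAT, no restriction-site cytosines, other cytosine minimums, gaps and flanks, robust moderation, a limit of 20 points, and leaving out each library or day.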

Additional observations from a re-analysis of the deposited data

Results flagged for a closer look

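In 72 checks of the member fragments for a library far from the rest of its group, 2 stood out. Chance gives about 1 in 20, so 2 of 72 is no excess. In the intronic Tnfrsf9 fragment 23.9 kb from the gene start, BAT + NE of day 6 was at 65.5%, while the other brown libraries were between 50.1% and 52.0%. In the Wt1 fragment 43.4 kb from the start, BWAT of day 6 was at 90.4%, while the other white libraries were between 86.6% and 87.2%. Neither fragment was called in any comparison.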

How the results depend on the processing

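Of the 171 values of the called fragments and the called promoter under alternatives, 132 kept their direction and their call, 39 kept their direction and lost the call, and none reversed. Member fragments called between brown and white cells numbered 9 in the main analysis (9.43% of all fragments). The lowest count was 2 with the 6 BAT and WAT libraries and day as a block (2.28% of all). Next came 4 of 10 fragments with at least 10 cytosines (7.24% of all) and 5 of 31 without restriction-site cytosines (7.79% of all), where fewer fragments were tested. Leaving out 1 library gave 7 to 8 (6.65% to 7.91% of all). The 1 called promoter (1.37% of all promoters) became 0 with the 6 libraries (0% of all) and 0 without BWAT (0.35% of all). Leaving out 1 library gave 0 to 1 (0.631% to 1.03% of all). The 3 called windows (10.6% of all windows) became 1 without the day term (9.21% of all), 0 with the 6 libraries (1.55%) and 0 without BWAT (5.09%). Leaving out 1 library gave 1 to 2 (6.79% to 8.87% of all). The cause was not tested. The counts of 0 for BWAT against WAT and for day 0 against later stayed at 0 under each alternative run, and day 0 against later has no value without its day term. Of the 16 CpGs that differed between BAT and WAT at all days, 1 passed at 20 points and 10 lay within a flank of 2000 bp, and leaving out a day gave 18 to 27. The 4 CpGs of BWAT against WAT became 1 at 20 points and 11 as single cytosines, and 28 to 32 when 1 day was left out, so that a single pair of libraries passes many more CpGs than both pairs together.

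The table gives no depth, so intervals for single cytosines are not given, and each condition is 1 library. The labels share no replicate numbers between groups, so pairing was by day only. RRBS reached a promoter window of 5 of the 8 genes, and Lep at 4 cytosines. For Mtus1, Cd40 and Psat1 the measured windows lay at internal starts, and the promoter at the gene start was not measured.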
